A study of Homo sapiens with 8 samples.

Results

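The HOX genes are the 39 protein-coding genes of the 4 human HOX clusters, found here by their symbols (HOXA, HOXB, HOXC or HOXD followed by a number) among 60564 genes of a count table, without use of any measured value. HOXA holds 11 genes on chromosome 7, HOXB 10 on chromosome 17, HOXC 9 on chromosome 12 and HOXD 9 on chromosome 2. The study compared AB8/13 cells, a human podocyte line that proliferates at 33 °C and differentiates at 37 °C, after knockdown of the transcription factor ATOH8. In the 4 ATOH8 knockdown libraries the cells had received an shRNA against ATOH8, and in the 4 control libraries a non-targeting shRNA. Both were transfected with a Lipofectamine reagent and kept under differentiating conditions for 5 days, and poly(A) RNA was sequenced. All libraries come from this 1 cell line. The sources used here do not give the sequence or the number of the shRNAs, so a difference due to lower ATOH8 and one due to the shRNA itself cannot be told apart. The libraries of a group are called biological replicates, but nothing says that they came from separate cultures or transfections. The p-values therefore cover the spread between these 8 libraries, part of which may be technical.

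HOX genes encode transcription factors that bind DNA through a homeodomain and give cells their position along the body axis. In each cluster the genes stand in the order in which they are used, from paralog group 1 for the head end to paralog group 13 for the tail end, and genes with the same number in different clusters are descendants of the same ancestral gene. In the mouse, the Hox11 genes act with Eya1 and Pax2 in the induction of the definitive kidney, and Hox10 genes are needed in the kidney stroma. Adult tissues and cell lines keep much of the HOX pattern of their origin, and Polycomb complexes hold unused HOX genes silent while Trithorax complexes keep used ones active.

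ATOH8 itself had 2.19, 2.79, 2.63 and 2.11 CPM (counts scaled to library size) in the knockdown libraries, against 6.56, 6.0, 5.80 and 4.97 CPM in the control libraries. All knockdown libraries lay below all control libraries, and ATOH8 fell to 41.7% of its control level (log2 fold change -1.26, SE 0.127, adjusted p = 1.78e-09, edgeR quasi-likelihood F test over 16884 genes). The libraries held 21108695 to 27109043 counts, and 3 counts in a library equal 0.112 to 0.143 CPM. Of 16 podocyte markers, 10 had enough counts to be tested, with 3 higher, 4 lower and a summed level of 868 to 916 CPM in knockdown and 1030 to 1060 CPM in control libraries. The defining slit diaphragm gene NPHS1 had 6, 5, 3 and 2 counts in knockdown and 2, 0, 0 and 0 counts in control libraries. Markers of other cell types were measured in the same libraries. Summed levels in knockdown and control libraries were 684 to 721 and 601 to 623 CPM for 10 mesangial and pericyte markers, 53.6 to 55.0 and 36.1 to 39.2 CPM for 10 endothelial markers, and 103 to 113 and 76.7 to 86.9 CPM for 8 leukocyte markers. They were 3.40 to 3.90 and 5.82 to 7.99 CPM for 9 proximal tubule markers, and 1.94 to 2.62 and 0.863 to 1.24 CPM for 9 collecting duct and distal tubule markers. Of these lists 5 of 7, 4 of 6, 2 of 4, 1 of 3 and 1 of 2 tested members were higher in knockdown, and 1 mesangial and 1 proximal tubule marker were lower, where 25.2% of all genes tested were higher and 25.9% lower. EMCN of the endothelial list and AQP2 of the collecting duct were at 0 in all 8 libraries. The part of these markers in the HOX results was not tested, and in bulk RNA a different share of cells and a different level per cell cannot be told apart.

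HOX genes of all 4 clusters were expressed, with the genes of groups 12 and 13 among the lowest. Levels are compared between genes as RPKM, the CPM per kilobase of merged exon. HOXB led, with 46.9% ± 0.575 of the summed HOX RPKM in knockdown and 47.3% ± 0.381 in control libraries (SD, n = 4 each). HOXA held 30.4% ± 0.294 in knockdown and 33.0% ± 0.460 in control libraries, HOXC 14.2% ± 0.166 and 12.6% ± 0.434, and HOXD 8.58% ± 0.420 and 7.06% ± 0.329. The ranges of knockdown and control libraries did not overlap for the HOXA, HOXC and HOXD shares and overlapped for HOXB. The summed level of all HOX genes was 193 ± 2.04 RPKM in knockdown and 186 ± 1.6 RPKM in control libraries. By position, groups 4 to 8 held 45.3% in knockdown and 43.4% in control libraries, groups 9 to 13 held 37.2% and 37.8%, and groups 1 to 3 held 17.6% and 18.7%.

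By merged exon length the highest HOX gene was HOXB7, a gene of the trunk region, with 22.8, 21.1, 22.9 and 21.7 RPKM in knockdown and 20.5, 19.5, 19.9 and 20.9 RPKM in control libraries. That placed it at the 88.4th percentile of tested genes in knockdown and the 86.5th in control libraries. Its neighbour in the order of levels, HOXB9, had 18.7, 18.2, 19.0 and 17.5 RPKM in knockdown and 20, 18.6, 20.1 and 18.7 RPKM in control libraries. The pair lay apart among knockdown libraries and overlapped among control libraries. HOXB2, a gene of the hindbrain, was next with 16.9 ± 0.833 RPKM in knockdown and 17.1 ± 0.477 RPKM in control libraries, and by the length of the longest transcript it was the highest, at 25.3 ± 1.25 RPKM in knockdown and 25.6 ± 0.713 RPKM in control libraries, against 24.7 ± 0.940 and 22.5 ± 0.674 RPKM for HOXB7. By merged exon length the order in HOXB went on with HOXB8, HOXB6, HOXB3, HOXB5 and HOXB4 between 9.84 and 4.43 RPKM in knockdown and between 9.59 and 3.91 RPKM in control libraries. HOXB5 and HOXB4 overlapped in level in both groups of libraries.

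HOXA10 and HOXA9, of the lumbar and thoracic paralog groups, led the HOXA cluster. HOXA10 had 10.8, 12.1, 11.8 and 12.2 RPKM in knockdown and 14.2, 15.3, 14.9 and 15.2 RPKM in control libraries, and HOXA9 had 12.7, 13.1, 13.7 and 13.5 RPKM in knockdown and 12.4, 14.1, 13.9 and 13.9 RPKM in control libraries. HOXA10 was above HOXA9 in control libraries without overlap, whereas in knockdown libraries HOXA9 had the higher mean and the ranges overlapped. HOXA5, HOXA7, HOXA3, HOXA4, HOXA11 and HOXA6 ranged from 7.98 down to 1.96 RPKM in knockdown and from 8.37 down to 1.83 RPKM in control libraries. HOXA2 had 0.639 RPKM in knockdown and 0.794 RPKM in control libraries. HOXA13, the group 13 gene of the digits and the genital tract, was the lowest in the cluster with 0.137 and 0.0812 RPKM.

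In HOXC, HOXC10 stood alone at the top with 11.8, 12, 12.2 and 12.7 RPKM in knockdown and 10.5, 10.7, 10.9 and 10.1 RPKM in control libraries. HOXC8 came next with 6.12, 5.95, 5.88 and 5.48 RPKM in knockdown and 5.12, 5.66, 5.11 and 4.93 RPKM in control libraries. Both lay above all lower HOXC genes in every library, while HOXC9 and HOXC6 overlapped with each other. HOXD was the lowest cluster. Its top gene HOXD4 had 4.20, 3.76, 3.91 and 4.59 RPKM in knockdown and 4.25, 4.25, 4.68 and 3.71 RPKM in control libraries, and HOXD8 had 2.36, 2.66, 2.23 and 2.94 RPKM in knockdown and 2.45, 2.47, 2.60 and 3.01 RPKM in control libraries. Of the exon bases of HOXD4 and HOXD3, 80.5% and 62.2% are shared with a gene model on the same strand. How reads in shared exons were counted is not stated, so the levels of these genes and of the cluster are less certain. In control libraries HOXD8 lay above HOXD1, HOXD9, HOXD11 and HOXD10, and in knockdown libraries HOXD1 and HOXD8 overlapped. Across all clusters, 14 of the 34 tested HOX genes exceeded the median control level of tested genes, which was 4.13 RPKM.

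**Figure D1:**
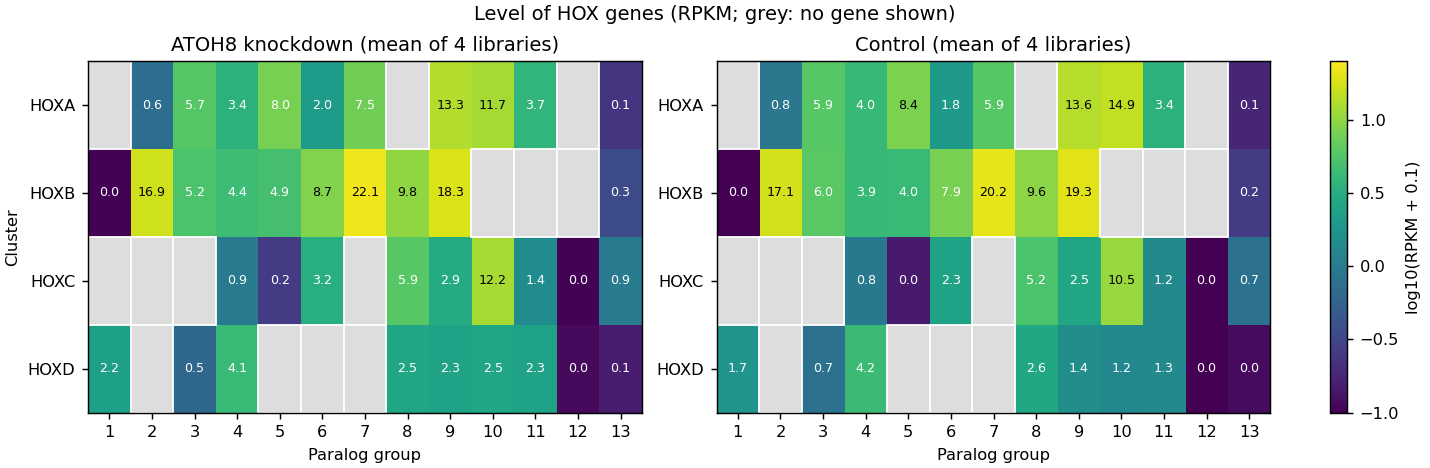
Mean level of HOX genes in RPKM, by cluster (rows) and paralog group (columns), with ATOH8 knockdown on the left and control on the right (n = 4 libraries each). By this length HOXB7, which HOXB2 exceeds by longest transcript, is the highest cell in both, at 22.1 RPKM in knockdown and 20.2 RPKM in control libraries, and the genes of groups 12 and 13 all lie below 1 RPKM.

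HOXB1, HOXC5, HOXC12, HOXD12 and HOXD13 had too few counts to test. HOXB1 had 1 count in 1 knockdown library and 0 in the other libraries, HOXC12 likewise had 1 count in 1 knockdown library, and HOXD12 had 1 count in each of 2 knockdown libraries and 0 in controls. HOXD13, a gene of the digits, had 2, 4, 4 and 1 counts in knockdown and 2, 1, 0 and 1 counts in control libraries. HOXC5 had 12, 2, 7 and 7 counts in knockdown and 3, 2, 0 and 4 counts in control libraries, and 59.9% of its exon bases lie within exons of other gene models on the same strand. Apart from HOXC5, these genes had at most 4 counts in any library.

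Of the 34 HOX genes tested, 12 were higher in knockdown (35.3%) and 3 were lower (8.82%) at an adjusted p below 0.05, and 19 were not called. Among all 16884 genes tested, 25.2% were higher, 25.9% were lower and 51.1% were called in either direction. The share of HOX genes called in either direction was 44.1%, and its difference from the whole table was not tested. The median log2 fold change was 0.11 over the tested HOX genes and 0.00 over all genes tested. Knockdown and control libraries did not overlap, with knockdown above, for 12 HOX genes (35.3%, against 22.4% of all genes), and with knockdown below for 4 (11.8%, against 23.2%). Only 4 HOX genes combined a call with a log2 fold change of 0.5 or more in size (11.8%, against 13.2%). By cluster, 4 of 7 tested genes were higher in HOXD with none lower (median 0.41), 2 of 7 in HOXC with none lower (median 0.18), 4 of 9 in HOXB with 1 lower (median 0.13), and 2 of 11 in HOXA with 2 lower (median -0.03). By position, the higher and lower calls were 1 and 1 of 7 tested genes in groups 1 to 3, 6 and 1 of 14 in groups 4 to 8, and 5 and 1 of 13 in groups 9 to 13. Differences between clusters and between positions were not tested.

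**Figure D2:**
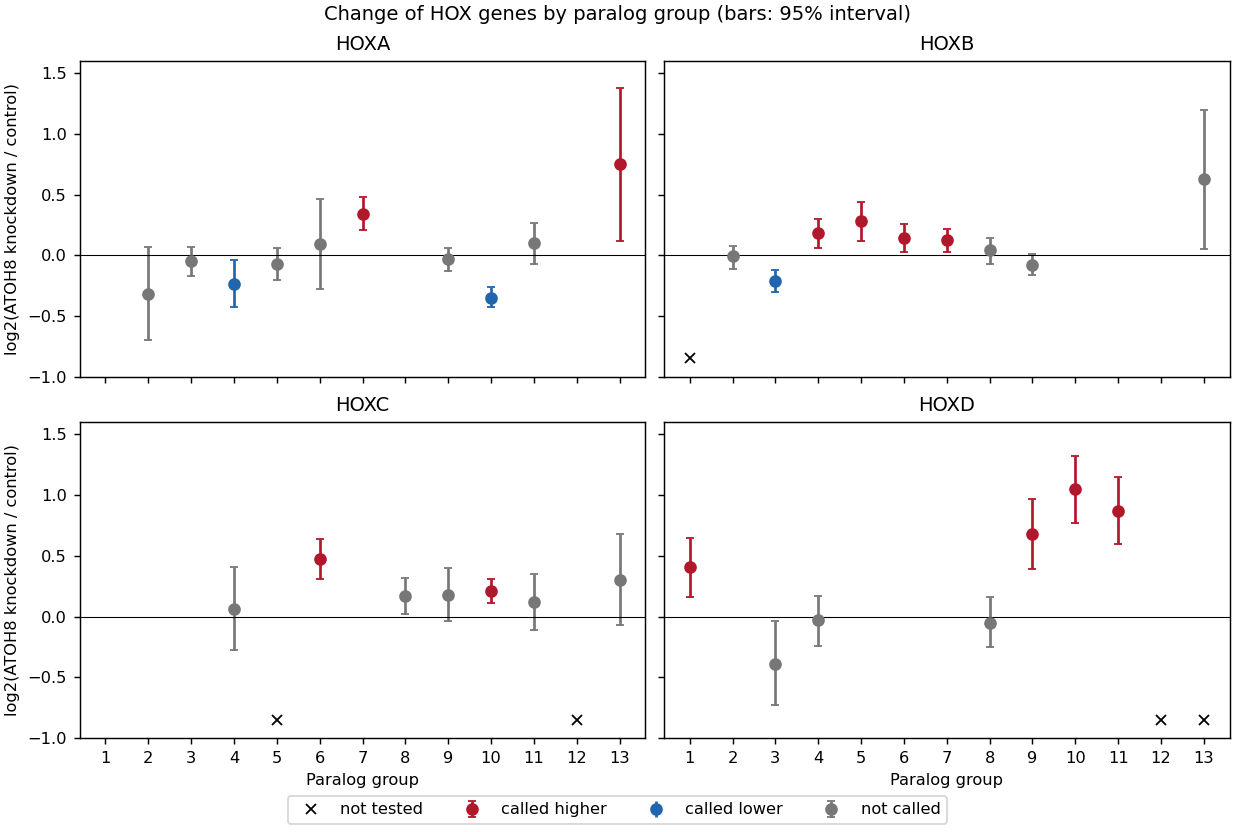
Log2 fold change of ATOH8 knockdown over control for tested HOX genes by paralog group, 1 panel per cluster, with 95% intervals from the edgeR fit (4 libraries in each group). The adjacent HOXD9, HOXD10 and HOXD11 stand out with changes of 0.68, 1.05 and 0.87, beside HOXA13 at 0.75 with a wide interval, and HOXA10 is the lowest called gene at -0.35.

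The HOXD cluster held 3 of the 4 HOX genes called with a log2 size of at least 0.5, the adjacent HOXD9, HOXD10 and HOXD11. The fourth was HOXA13. HOXD10 (ENSG00000128710.5), a gene of the lumbar region and the limb, had 6.41, 7.11, 5.73 and 7.56 CPM in knockdown and 3.34, 2.25, 3.66 and 3.80 CPM in control libraries. Each knockdown library lay above each control library. HOXD10 rose 2.07-fold (log2 fold change 1.05, SE 0.133, adjusted p = 3.18e-07, edgeR quasi-likelihood F test), from raw counts of 133 to 190 in knockdown and 60 to 98 in control libraries. Of all genes tested, 549 had a log2 fold change at least as high.

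HOXD11 (ENSG00000128713.14), of the paralog group needed for kidney induction in the mouse, had 5.50, 5.07, 4.78 and 4.10 CPM in knockdown and 2.44, 2.33, 2.61 and 3.22 CPM in control libraries. The groups did not overlap, and HOXD11 rose 1.83-fold (log2 fold change 0.87, SE 0.133, adjusted p = 2.58e-06). HOXD9 (ENSG00000128709.13), a thoracic and lumbar gene, had 4.77, 3.42, 4.39 and 4.70 CPM in knockdown and 2.89, 2.14, 2.76 and 2.99 CPM in control libraries. Its lowest knockdown library exceeded its highest control library, and it rose 1.6-fold (log2 fold change 0.68, SE 0.140, adjusted p = 1.61e-04). Together the 3 genes held 7.10 ± 0.368 RPKM in knockdown and 3.91 ± 0.607 RPKM in control libraries, or 3.67% and 2.10% of the summed HOX level. HOXD10 and HOXD11 share exon bases on the same strand, 16.8% of HOXD10 and 21.4% of HOXD11 in GENCODE release 29. Reads there could have been assigned to either gene, to both or to neither, and the sources used here do not say which. HOXD9 shares no exon bases with another gene.

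The next genes along the cluster did not follow. HOXD8 had 6.19, 6.99, 5.85 and 7.72 CPM in knockdown and 6.45, 6.49, 6.84 and 7.92 CPM in control libraries, with overlapping groups (log2 fold change -0.05, 95% interval -0.25 to 0.16, adjusted p = 0.729). HOXD4 had 6.15, 5.50, 5.73 and 6.73 CPM in knockdown and 6.22, 6.23, 6.84 and 5.43 CPM in control libraries, again overlapping (-0.03, interval -0.24 to 0.17, adjusted p = 0.808). HOXD3 averaged 1.90 CPM in knockdown and 2.48 CPM in control libraries with all knockdown libraries below all controls, and missed the threshold (-0.39, interval -0.73 to -0.04, adjusted p = 0.0552). HOXD3 and HOXD4 share 62.2% and 80.5% of their exon bases with an overlapping gene model on the same strand, ENSG00000278500. At the other end of the cluster, HOXD1, a gene of paralog group 1, had 4.38 ± 0.171 CPM in knockdown and 3.29 ± 0.329 CPM in control libraries and rose 1.33-fold (log2 fold change 0.41, SE 0.119, adjusted p = 0.005). Of its exon bases, 58.1% lie opposite exons of the noncoding RNA HAGLR or of another gene model, whose level is not reported here. HAGLR had 16.0 ± 1.25 CPM in knockdown and 15.4 ± 0.769 CPM in control libraries. HAGLR was not called (log2 fold change 0.06, adjusted p = 0.453).

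**Figure D3:**
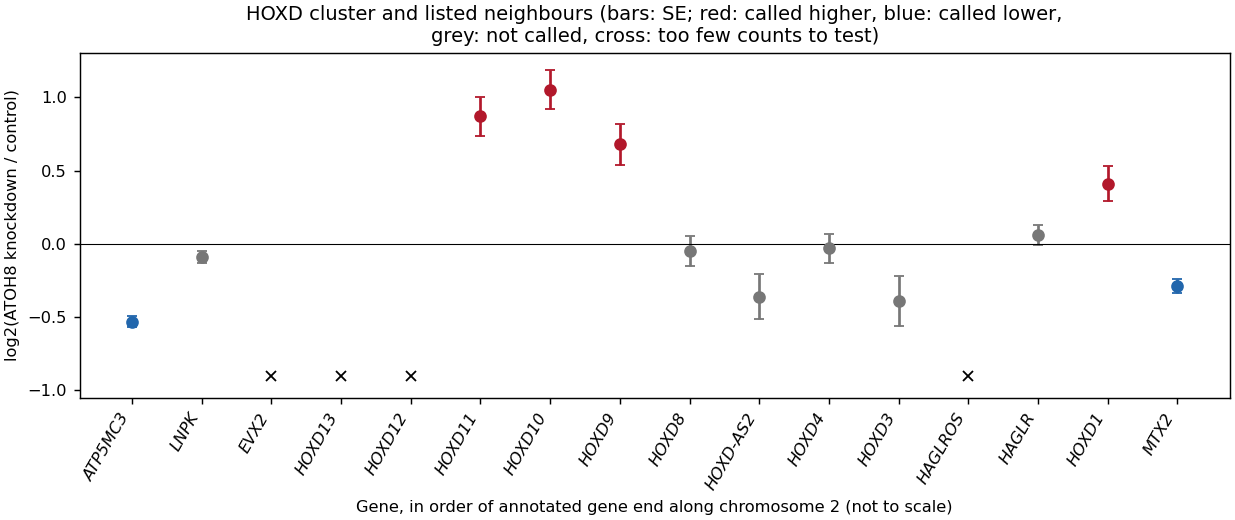
Log2 fold change of ATOH8 knockdown over control, with its SE, for the HOXD genes, their noncoding RNAs and the flanking genes in their order along chromosome 2. Distances are not to scale, and LNPK and EVX2 lie between ATP5MC3 and the cluster. HOXD11, HOXD10 and HOXD9 lie side by side between 0.68 and 1.05, HOXD8 and HOXD4 lie at -0.05 and -0.03, and the flanking genes ATP5MC3 and MTX2 lie at -0.53 and -0.29.

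The promoters of HOXD11, HOXD10 and HOXD8 are shown because these genes are neighbours of which the first pair was called and HOXD8 was not. They are the 250 bases before the RefSeq start of each gene, on the plus strand of GRCh38.p14, with the E-box CANNTG, the word that basic helix-loop-helix factors such as ATOH8 bind as a class, in capitals. HOXD9 has no entry in the table.
HOXD11, chr2:176107030-176107279: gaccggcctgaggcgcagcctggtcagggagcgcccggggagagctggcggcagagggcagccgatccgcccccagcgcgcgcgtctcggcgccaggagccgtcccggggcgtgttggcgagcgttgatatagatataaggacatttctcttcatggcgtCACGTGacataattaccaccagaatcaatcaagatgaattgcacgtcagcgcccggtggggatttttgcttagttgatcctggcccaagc
HOXD10, chr2:176116528-176116777: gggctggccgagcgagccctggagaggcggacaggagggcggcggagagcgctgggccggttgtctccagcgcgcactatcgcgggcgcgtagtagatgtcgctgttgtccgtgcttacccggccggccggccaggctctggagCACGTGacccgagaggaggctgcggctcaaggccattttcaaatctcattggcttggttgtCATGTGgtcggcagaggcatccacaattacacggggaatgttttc
HOXD8, chr2:176129455-176129704: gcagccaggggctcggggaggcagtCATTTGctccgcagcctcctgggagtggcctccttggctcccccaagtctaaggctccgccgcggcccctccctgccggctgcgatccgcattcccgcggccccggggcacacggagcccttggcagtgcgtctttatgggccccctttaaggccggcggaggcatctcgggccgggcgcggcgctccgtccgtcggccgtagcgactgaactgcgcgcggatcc
The windows of HOXD11, HOXD10 and HOXD8 hold 1, 2 and 1 matches of CANNTG, which reads the same class of words on both strands. The form CACGTG, which is its own reverse complement, occurs once each in HOXD11 and HOXD10 and not in HOXD8. Over 35116 windows of the same length, 61.8% hold CANNTG and 6.34% hold CACGTG. Of 27 windows of the 20 HOX genes with an entry, 20 hold CANNTG and 8 hold CACGTG. With CACGTG, HOXD1, HOXD10 and HOXD11 were called higher and HOXA4 lower. HOXA3, HOXA9 and HOXD3 also hold it and were not called, and HOXD13, which holds it too, was not tested. Among genes whose windows lack CACGTG, HOXA7 and HOXA13 were called higher and HOXA10 lower. HOXA2, HOXA6, HOXA11, HOXC4, HOXD4 and HOXD8 lack it too and were not called, and HOXB1, HOXC5 and HOXD12 lack it and were not tested. A relation of the word to the calls was not tested. The word TGATNNAT or its reverse complement ATNNATCA, to which HOX proteins bind together with PBX, occurs once in HOXD11 and not in the windows of HOXD10 and HOXD8, against 6.47% of all windows. The windows hold 23, 23 and 28 CG dinucleotides, against a median of 11. A match describes these letters and does not show a binding site.

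In HOXC, HOXC6 and HOXC10 were higher in knockdown. HOXC6, a gene of the upper trunk, had 12, 12, 10.2 and 11 CPM in knockdown and 7.91, 8.44, 8.70 and 7.61 CPM in control libraries, with no overlap. It rose 1.39-fold (log2 fold change 0.47, SE 0.0796, adjusted p = 1.16e-05). On the same strand, HOXC6 shares 15.7% of its exon bases with HOXC9, HOXC4 and another gene model. HOXC10, a gene of the lumbar region, had 27.5, 28.1, 28.5 and 29.5 CPM in knockdown and 24.4, 24.9, 25.3 and 23.6 CPM in control libraries, and rose 1.16-fold (log2 fold change 0.21, SE 0.0484, adjusted p = 5.52e-04). HOXC8, with 11.6, 11.2, 11.1 and 10.3 CPM in knockdown and 9.67, 10.7, 9.65 and 9.31 CPM in control libraries, overlapped between groups and was not called (log2 fold change 0.17, interval 0.02 to 0.32, adjusted p = 0.0596). It was called in 3 of 13 alternatives. HOXC9 had separate groups but no call (0.18, interval -0.04 to 0.40, adjusted p = 0.161). HOXC4, HOXC11 and HOXC13 were not called at log2 fold changes of 0.06, 0.12 and 0.30.

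In HOXB the called changes were small. HOXB5, a gene of the lower neck and upper trunk, had 10.5, 9.31, 9.86 and 9.99 CPM in knockdown and 8.10, 7.99, 8.56 and 8.03 CPM in control libraries, and rose without overlap (log2 fold change 0.28, SE 0.0777, adjusted p = 0.00339). HOXB4, known for its effect on blood stem cells, rose to 16.6 CPM in knockdown, against 14.7 CPM in control libraries (0.18, SE 0.0596, adjusted p = 0.013). HOXB7 rose to 33.8 ± 1.29 CPM in knockdown, against 30.9 ± 0.924 CPM in control libraries (0.13, SE 0.0464, adjusted p = 0.0205), and HOXB6 to 22.7 CPM in knockdown, against 20.6 CPM in control libraries (0.14, SE 0.0577, adjusted p = 0.0384). The HOXB7 call was lost in 4 of 13 alternatives and the HOXB6 call, whose groups overlapped, in 6 of 13. HOXB3, a hindbrain gene, went the other way. It had 38.6, 37.9, 38.1 and 39 CPM in knockdown and 43.4, 42.7, 46.3 and 45.4 CPM in control libraries, and fell without overlap to 86.4% of control (log2 fold change -0.21, SE 0.0425, adjusted p = 1.29e-04). On the same strand, HOXB4 shares 17.1% of its exon bases with HOXB3 and other gene models, and HOXB6 shares 16.6% with HOXB3. Reads in the shared bases could have been assigned to either gene, to both or to neither. HOXB9, HOXB2 and HOXB8 were not called, with intervals of -0.16 to 0.01 for HOXB9 and -0.11 to 0.08 for HOXB2. HOXB13, known from prostate and tail development, averaged 0.894 CPM in knockdown and 0.574 CPM in control libraries and was not called (0.63, interval 0.05 to 1.20, adjusted p = 0.0628).

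**Figure D4:**
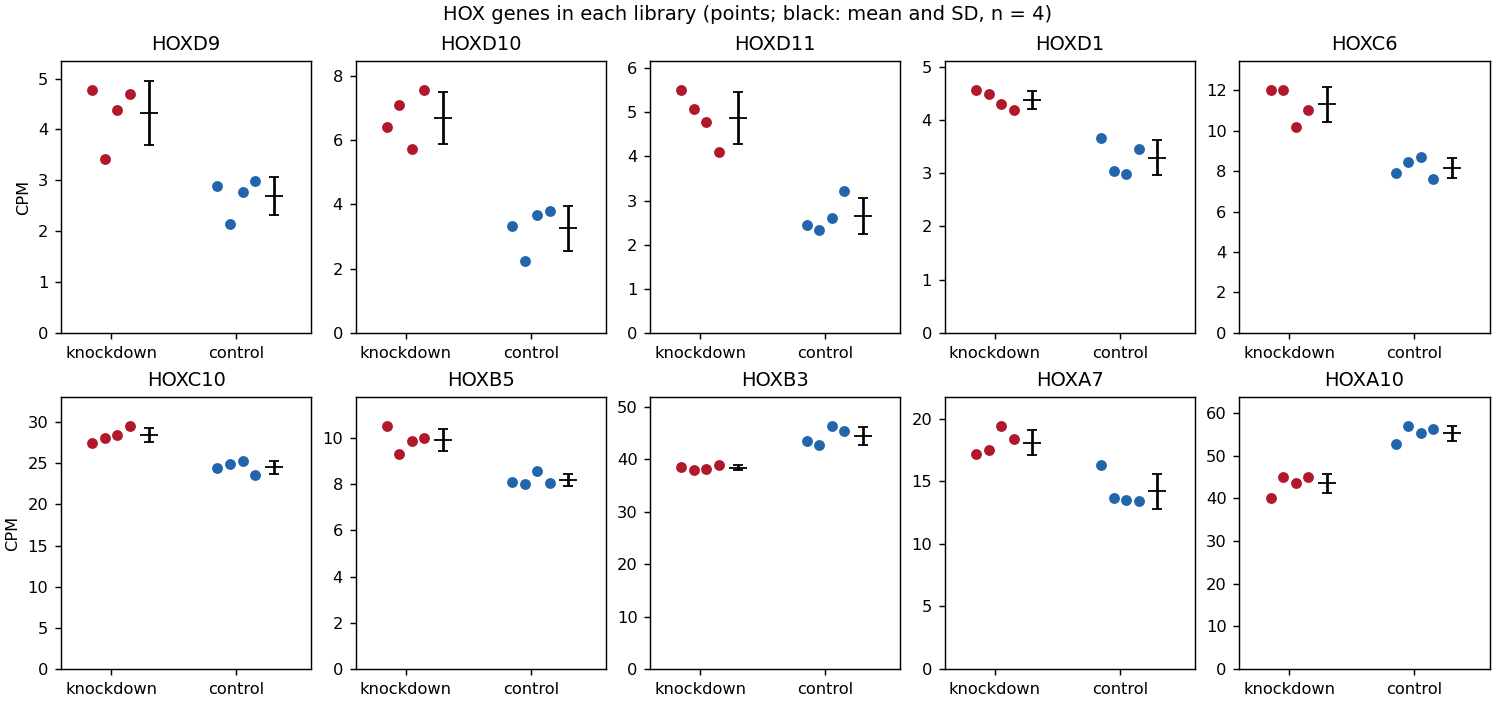
CPM of 10 called HOX genes in each library (points), with mean and SD (n = 4), knockdown left of control and each axis starting at 0. In 8 of the panels the knockdown libraries lie above all control libraries, and in HOXB3 and HOXA10 they lie below. The called genes HOXA4, HOXA13, HOXB4, HOXB6 and HOXB7 are not shown, and the groups of HOXA4 and HOXB6 overlapped.

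In HOXA the calls were split by direction. HOXA10 (ENSG00000253293.5) had 40.2, 45.0, 43.7 and 45.1 CPM in knockdown and 52.8, 56.9, 55.3 and 56.2 CPM in control libraries. The groups lay well apart, and HOXA10 fell to 78.7% of control (log2 fold change -0.35, SE 0.0432, adjusted p = 1e-07). Of its exon bases, 9.93% are shared with a gene model on the same strand and 16.4% lie opposite HOXA10-AS. HOXA7, a trunk gene, had 17.2, 17.5, 19.4 and 18.4 CPM in knockdown and 16.3, 13.7, 13.5 and 13.4 CPM in control libraries. It rose without overlap (log2 fold change 0.34, SE 0.067, adjusted p = 8.33e-05), and 62.5% of its exon bases lie opposite the noncoding RNA HOXA-AS3, which was not called (0.19, adjusted p = 0.572). Antisense pairs cannot be told apart here with certainty, because the library kit keeps the strand but whether the counting used the strand is not stated in the sources used here.

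HOXA4, a gene of the neck region, averaged 5.86 CPM in knockdown and 6.92 CPM in control libraries, with overlapping groups (log2 fold change -0.24, SE 0.0947, adjusted p = 0.0384). Its lower call was lost in 8 of 13 alternatives. HOXA4 shares 31.0% of its exon bases with a gene model on the same strand. HOXA13 had 1.08, 0.511, 0.603 and 0.597 CPM in knockdown and 0.337, 0.450, 0.475 and 0.388 CPM in control libraries, from 13 to 25 counts in knockdown and 9 to 12 counts in control libraries (log2 fold change 0.75, SE 0.307, adjusted p = 0.0428). That call was lost in 8 of 12 alternatives. Without knockdown replicate 1 the log2 fold change was 0.47 (adjusted p = 0.249), without each control library in turn the adjusted p was 0.053 to 0.115, and with the replicate number as a block it was 0.0649. HOXA9, with 38.5, 39.8, 41.5 and 40.8 CPM in knockdown and 37.6, 42.6, 42.1 and 42.1 CPM in control libraries, was not called (-0.03, interval -0.13 to 0.06, adjusted p = 0.583). HOXA11, paralog of HOXD11, was not called either, at 8.44 CPM in knockdown and 7.84 CPM in control libraries (0.10, interval -0.07 to 0.27, adjusted p = 0.322). HOXA3, HOXA5 and HOXA6 were not called, with log2 fold changes between -0.07 and 0.09. HOXA2 had separate groups but no call (-0.32, interval -0.70 to 0.07, adjusted p = 0.165).

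Paralogs with the same number did not all share a direction. Paralog group 10 had all 3 genes called: HOXD10 and HOXC10 higher, and HOXA10 lower, and its summed level was 26.4 ± 1.11 RPKM in knockdown and 26.7 ± 0.512 RPKM in control libraries. In group 9 HOXD9 was called out of 4 genes, and in group 11 HOXD11 out of 3. Both tested genes of group 7, HOXA7 and HOXB7, were higher. Group 4 had HOXB4 higher and HOXA4 lower, and group 12 had no gene with enough counts. The homeoboxes of the group 10 genes show how far the transcripts differ in their most conserved part. In the sequences of GENCODE release 29 transcripts, the 180-base homeobox is 81.7% identical between HOXA10 and HOXC10, 77.8% between HOXA10 and HOXD10 and 82.8% between HOXC10 and HOXD10. The last 60 bases of each follow, with capitals at the 14 of 60 positions at which the 3 genes are not all alike.
HOXA10: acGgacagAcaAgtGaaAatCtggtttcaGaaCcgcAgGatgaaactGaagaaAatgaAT
HOXC10: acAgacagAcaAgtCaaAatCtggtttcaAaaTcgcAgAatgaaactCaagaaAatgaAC
HOXD10: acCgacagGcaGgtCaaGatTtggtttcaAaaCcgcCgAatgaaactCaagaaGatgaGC
Words of 50 bases in a row were searched between all HOX genes. HOXA10, HOXC10 and HOXD10 share none with a HOX gene of another cluster, and HOXB3 and HOXD3 were the exceptions in the family, with 13 words each.

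Genes for the DNA-binding partners of HOX proteins were called in both directions, at about the rate of the whole table. Of 11 genes for TALE homeodomain cofactors, 9 were tested, and 3 were higher and 2 lower in knockdown (median log2 fold change 0.01), where 51.1% of all genes tested were called in either direction. PBX3 rose to 101 CPM in knockdown, against 85.3 CPM in control libraries (log2 fold change 0.24, SE 0.0338, adjusted p = 6.36e-07), and MEIS3 to 3.29 ± 0.137 CPM in knockdown, against 1.58 ± 0.188 CPM in control libraries (1.06, SE 0.153, adjusted p = 1.11e-06). MEIS2 rose too (0.27, adjusted p = 0.00657). PBX2 and the related repressor TGIF1 fell (-0.16 and -0.14, adjusted p = 0.0028 and 9.43e-04).

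Of 18 noncoding and antisense RNAs of the clusters, 11 were tested, and 2 were higher and 1 lower (median -0.04). Among all genes tested, 25.2% were higher and 25.9% lower. HOTAIR, transcribed from the HOXC cluster and reported by others to act on HOXD chromatin, had 2.07 ± 0.362 CPM in knockdown and 1.44 ± 0.312 CPM in control libraries and rose (0.53, adjusted p = 0.025). HOXB-AS1 rose (0.61, adjusted p = 0.0122) and HOXC-AS2 fell (-0.54, adjusted p = 0.0195). Of 18 protein-coding genes that flank the clusters, not all of them adjacent, 14 were tested. Of these, 4 were higher and 6 lower (median -0.07), beside the same shares of all genes. Around HOXD, ATP5MC3, a subunit of mitochondrial ATP synthase, fell to 92.0 CPM in knockdown, against 133 CPM in control libraries (-0.53, SE 0.0353, adjusted p = 2.62e-13). LNPK and EVX2 lie between ATP5MC3 and the cluster. The mitochondrial import gene MTX2, past HOXD1, fell (-0.29, adjusted p = 5.88e-06). LNPK, on the side of HOXD13, was not called (-0.09, adjusted p = 0.0848). Around HOXC, CBX5, which encodes heterochromatin protein HP1 alpha, rose (0.28, adjusted p = 5.48e-09) and so did ATF7 (0.17). Around HOXA, HIBADH and TAX1BP1 fell (-0.34 and -0.29, adjusted p = 1.23e-07 and 2.96e-07).

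All 29 listed Polycomb genes were tested, with 8 higher, 10 lower and a median of -0.02, where 25.2% of all genes tested were higher and 25.9% lower. By adjusted p, JARID2, PHC2 and PHC3 came first among the higher genes (log2 fold changes of 0.32, 0.25 and 0.21) and PCGF5, EED and PCGF6 among the lower ones (-0.40, -0.35 and -0.31, with adjusted p = 4.74e-11 for PCGF5). Of the core subunits of the H3K27 methyltransferase, EZH2 and SUZ12 also fell, by 0.24 and 0.20 on the log2 scale (adjusted p = 3.14e-05 and 1.7e-05). The related EZH1, and RBBP4 and RBBP7 of the same complex, were not called (0.12, -0.02 and -0.06). Of 20 Trithorax, MLL and H3K27 demethylase genes, 9 were higher and 3 lower (median 0.08), beside the same shares of all genes. KMT2D, an H3K4 methyltransferase, rose to 114 CPM in knockdown, against 89.7 CPM in control libraries (0.35, adjusted p = 1.43e-07), as did DOT1L and AFF1 (0.34 and 0.22). WDR5, a shared subunit of MLL complexes, fell (-0.20, adjusted p = 2.51e-05), as did AFF4 and RBBP5 (-0.13 and -0.14).

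Retinoic acid, made from vitamin A, switches on HOX genes in the embryo through its nuclear receptors, the earliest paralog groups first. Of 18 genes of the pathway, 14 were tested, and 10 were higher and 1 lower in knockdown, where 25.2% and 25.9% of all genes tested were. The median log2 fold change was 0.39 over the list and 0.00 over all genes tested. RARB, a receptor gene that retinoic acid itself induces, had 36, 39, 37 and 31 counts in knockdown and 3, 2, 3 and 2 counts in control libraries (adjusted p = 6.94e-11), and no fold is given against so few counts. RDH10, which oxidises retinol, rose to 47.1 CPM in knockdown, against 33.5 CPM in control libraries (0.49, adjusted p = 7.97e-11), and DHRS3, which reduces retinal back to retinol, to 12.4 CPM in knockdown, against 8.06 CPM in control libraries (0.62, adjusted p = 6.18e-08). ALDH1A1, a retinal dehydrogenase, fell (-1.37, adjusted p = 8.66e-04) from a low level, with 5 to 8 counts in knockdown and 12 to 25 counts in control libraries. The list was chosen with earlier results of these data known, and the part of this pathway in the HOX results was not tested.

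Homeobox genes outside the clusters were mostly too low to test. Of 22 listed, 6 were tested. Of these, 3 were higher (among them MEOX1 and TSHZ3 at 0.48 and 0.25) and 2 lower (LHX1 at -0.31, and MEOX2). Among all genes tested, 25.2% were higher and 25.9% lower. MEOX2, a gene of mesoderm and vessels, had 1, 2, 2 and 4 counts in knockdown and 17, 22, 13 and 16 counts in control libraries (adjusted p = 8.94e-07), and no fold is given at so few counts. Of 9 kidney genes that work with the HOX11 paralogs in development, 7 were tested. Of these, 3 were higher and 2 lower (median -0.06), beside the same shares of all genes. SALL1, a zinc finger gene of kidney progenitors, rose to 58.6 ± 1.08 CPM in knockdown, against 26.0 ± 0.994 CPM in control libraries (1.17, SE 0.0433, adjusted p = 6.48e-19), and the stromal gene FOXD1 and the early kidney gene OSR1 rose too (0.31 and 0.80). PAX2 fell to 11.7 CPM in knockdown, against 16.4 CPM in control libraries (-0.49, SE 0.0705, adjusted p = 9.5e-07), and GDNF, the ligand for ureteric bud growth, fell by 0.11 on the log2 scale (adjusted p = 0.0323). EYA1 had too few counts to be tested.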

How the data were processed

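Poly(A) RNA of AB8/13 cells was sequenced in 8 libraries, 4 per group. The deposited table holds whole-number counts per gene, used as the authors gave them. Per the submitters' processing notes, FastQC, STAR, featureCounts, DESeq2 and hg19 were named, and the sources used here give no versions, annotation or strand setting. Per the labels' protocols, RNA had an integrity number above 7.0 and libraries were directional. Of 60609 rows, 1 with a missing cell and 44 pseudoautosomal Y copies were left out. A table of gene names gave symbols to 60295 genes and GENCODE release 29 to 250, and 19 had none. Exon lengths came from GENCODE release 29, which describes GRCh38, so coordinates are printed only for RefSeq promoters.

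Genes were filtered with filterByExpr by group and compared with edgeR 4.0.16 (quasi-likelihood F test, robust, TMM scaling, R 4.3.3, limma 3.58.1), with Benjamini-Hochberg adjustment over 16884 genes at 0.05. Fold changes are knockdown over control, SE come from the F statistic and 95% intervals from the fit. The fit was tested on simulated data. The HOX members were found by symbol alone, but the family and the gene lists were chosen with earlier results of these data known. Values per library were given for called members with a log2 size of at least 0.5 or the smallest adjusted p in their cluster and direction, and for the 2 highest members per cluster. Of related lists, up to 3 higher and 3 lower genes with the smallest adjusted p were named. A few others (AQP2, EMCN, LNPK, MTX2, EZH1, EZH2, SUZ12, RBBP4, RBBP7, EYA1, HAGLR, HOXA-AS3) were chosen after their values were seen. A few genes of the family and the lists enter the counts but are not reported here singly. Counts of no pair of libraries agreed within sampling noise (chi-square per gene 1.90 to 4.48). Alternatives were DESeq2 size factors, the Wald test of DESeq2 1.42.0, other filters, a replicate block, the omission of each library and, for levels, the longest transcript.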

Additional observations from a re-analysis of the deposited data

Results flagged for a closer look

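Of 70 groups of 4 libraries of ATOH8 and the HOX genes tested, 6 held a library that stood apart from the other libraries of its group by Dixon's criterion, which chance meets in about 1 of 20 groups. In knockdown libraries, HOXA13 had 1.08 CPM in replicate 1, with the next library at 0.603 CPM. In control libraries, replicate 1 was high for HOXA3 at 27.6 CPM (next 25.0 CPM) and for HOXA7 at 16.3 CPM (next 13.7 CPM), and low for HOXA9 at 37.6 CPM (next 42.1 CPM). Control replicate 4 was high for HOXB2 at 41.6 CPM (next 39.5 CPM) and for HOXB13 at 0.931 CPM (next 0.487 CPM).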

How the results depend on the processing

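The 12 higher and 3 lower HOX genes became 12 and 3 with DESeq2 size factors, 12 and 3 with a filter of 1 CPM in 4 libraries, 11 and 2 without a filter, 10 and 2 with the Wald test of DESeq2, and 9 to 13 and 2 to 4 when each library was left out. With the replicate number as a block the counts were 12 and 3, with HOXA13 lost (adjusted p = 0.0649) and HOXB13 gained (0.0492), and over all genes 4336 higher and 4466 lower (4253 and 4372 without it). Same-numbered libraries correlated at 0.00143 to 0.0574, and libraries 1, 2 and 4 but not 3 matched their own number best. These values do not settle whether the numbers pair the libraries. Of 427 values of single HOX genes under the alternatives, 385 kept direction and call, 26 lost the call and 6 gained it. The other 10 reversed, all with a library left out and all of uncalled genes, with ranges of -0.09 to 0.00 for HOXA3, -0.13 to 0.22 for HOXA6, -0.04 to 0.02 for HOXB2, -0.04 to 0.16 for HOXC4, -0.09 to 0.01 for HOXD4 and -0.12 to 0.02 for HOXD8.

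HOXD3 was called only without knockdown replicate 1 (adjusted p = 0.0315). HOXB13 was called with the block and without control replicate 4 (0.00919), and HOXC8 with the filter of 1 CPM (0.0472), without knockdown replicate 4 (0.0381) and without control replicate 2 (0.0328). The cause was not tested. The calls of HOXD9, HOXD10, HOXD11 and HOXA10 held in every alternative, at 0.58 to 0.78, 0.90 to 1.13, 0.81 to 0.98 and -0.37 to -0.31. With the longest transcript as length, HOXA held 31.7% in knockdown and 34.4% in control libraries and HOXC 13.4% and 11.8%, 5 of 10 HOXB and 5 of 9 HOXD genes kept their rank, and HOXB2 passed HOXB7. Without HOXB7 the shares in knockdown and control libraries were 34.3% and 37.1% for HOXA, 40.0% and 40.9% for HOXB, 16.0% and 14.1% for HOXC and 9.68% and 7.92% for HOXD. Depth limits the group 12 and 13 genes, which had at most 28 counts in a library except HOXC13.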
